A study of Mus musculus with 8 samples.

Results

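The 10 genes examined here encode cytokines and death ligands through which CD8 T cells act on other cells: Ifng, Tnf, Il2, Il10, Lta, Ltb, Csf1 and Csf2 as cytokines and Fasl and Tnfsf10 as ligands of death receptors. They were chosen by symbol, with earlier results of these data known, as were the gene lists below. All 10 were among the 24303 genes of the table. The data are RNA-seq of P14 cells, CD8 T cells of C57BL/6 mice whose transgenic T cell receptor recognizes the GP33 peptide of LCMV, taken from spleens, cultured with IL-2 and later IL-2 plus IL-15, and sorted as viable CD8 T cells. The 8 libraries came from 4 conditions with 2 replicates each. In all conditions the cells were first activated with anti-CD3 plus anti-CD28 until day 2. Acute-2d cells then received no peptide, and Acute-7d cells were given GP33 repeatedly until day 7, after which both were rested until day 19. The dysfunctional cells (T_Dysf) were given GP33 repeatedly until day 19, with TGF-β1 added from day 7. The Effector libraries were taken on day 7, and their labels give no further treatment. The paper calls the sequenced cells antigen-experienced, and a flow cytometry figure in it names day 7 effector cells as stimulated for 7 days. Antigen and TGF-β1 were combined in T_Dysf, so their parts cannot be told apart here, and in the comparisons with Effector the day differed as well. Every library came from cultured cells of 1 receptor specificity, with no infected or tumor-bearing host.

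IFN-γ, encoded by Ifng, acts on macrophages and tumor cells and is a defining product of cytotoxic T cells. TNF and the lymphotoxins (Lta, Ltb) belong to the TNF superfamily and lie side by side in 1 gene cluster. Fas ligand (Fasl) and TRAIL (Tnfsf10) are members of the same superfamily that trigger apoptosis through Fas and the TRAIL receptor. IL-2 drives T cell growth, GM-CSF (Csf2) and M-CSF (Csf1) act on myeloid cells, and IL-10 dampens antigen presentation and inflammation. T cell receptor signals raise transcription of most of these genes through NFAT and other factors, and many of the messages carry AU-rich elements in the 3′ UTR that shorten their life.

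The AU-rich elements are shown because they set the members apart before any value is considered. The pentamer ATTTA was counted in the 3′ UTR of each gene in the mouse reference (GRCm38). Of 15281 genes, 69.3% held at least 1, and the density over all their 3′ UTR bases pooled was 1.87 per kb. Csf2 had 28.4 per kb, Il2 had 12 and Tnf had 10.5, while Ifng had 9.51 and Il10 had 8.50. Lta had 5.24 per kb, Tnfsf10 had 2.00, Csf1 had 1.89 and Fasl had 1.13, and the 156-base 3′ UTR of Ltb had none. The 30-base stretch with the most pentamers is printed for 5 members, with the pentamers in capitals. Csf2 had the densest element, Tnf and Ifng were alike in density, and Il10 and Tnfsf10 had 1 and 2 pentamers in the printed stretch. In their own densest stretch Lta and Csf1 had 2, Fasl had 1 and Ltb had 0. A link between these elements and the levels in T_Dysf was not tested.
Csf2, chr11:54247329-54247358, minus strand: tttttaaatATTTATTTATTTATTTATTTA
Tnf, chr17:35199679-35199708, minus strand: attATTTAttATTTATTTAttATTTATTTA
Ifng, chr10:118445330-118445359, plus strand: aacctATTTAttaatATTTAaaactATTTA
Il10, chr1:131024372-131024401, plus strand: cctcgtttgtacctctctccgaaatATTTA
Tnfsf10, chr3:27339339-27339368, plus strand: aagtattgttttacctATTTAtcatATTTA
The overlapping nonamer ATTTATTTA, present in 6.67% of all 3′ UTRs, occurred 5 times in Csf2, 2 times in Tnf and 1 time each in Il2 and Lta, and it was not found in Ifng, Il10 or Tnfsf10.

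Promoters (300 bases, RefSeq, GRCm38.p6) were found for 9 of the 10 members, and those of the 3 members with a promoter entry whose transcripts changed in T_Dysf are printed, since they differed from each other in direction. Capitals mark the NFAT core GGAAA on either strand.
Ifng promoter, chr10:118440796-118441095, plus strand: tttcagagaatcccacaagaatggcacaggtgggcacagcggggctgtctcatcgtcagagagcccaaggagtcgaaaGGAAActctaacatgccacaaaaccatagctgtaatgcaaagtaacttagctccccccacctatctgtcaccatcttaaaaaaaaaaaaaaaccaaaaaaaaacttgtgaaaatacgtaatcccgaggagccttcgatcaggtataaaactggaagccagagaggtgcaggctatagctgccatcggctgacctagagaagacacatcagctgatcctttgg
Tnfsf10 promoter, chr3:27316827-27317126, plus strand: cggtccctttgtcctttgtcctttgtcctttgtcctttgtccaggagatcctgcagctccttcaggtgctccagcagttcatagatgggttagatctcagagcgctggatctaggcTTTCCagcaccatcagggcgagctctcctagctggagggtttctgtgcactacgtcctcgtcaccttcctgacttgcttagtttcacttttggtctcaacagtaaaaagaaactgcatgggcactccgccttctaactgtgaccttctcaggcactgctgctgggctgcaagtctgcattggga
Ltb promoter, chr17:35194257-35194556, plus strand: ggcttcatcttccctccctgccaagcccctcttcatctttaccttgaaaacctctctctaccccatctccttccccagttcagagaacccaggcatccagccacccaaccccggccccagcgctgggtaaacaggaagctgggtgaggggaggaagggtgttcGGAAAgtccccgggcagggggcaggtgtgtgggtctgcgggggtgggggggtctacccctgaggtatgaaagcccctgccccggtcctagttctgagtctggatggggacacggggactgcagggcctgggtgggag
GGAAA occurred at least once in all 9 promoters, and in 61.3% of 27025 promoter windows of this length. Ifng, Tnfsf10 and Ltb each held 1 match, at positions -172, -134 and -87 from the start. The match in Ltb overlapped 1 of 4 matches to the NF-kB pattern (GGG and CC with any 5 bases between them, either strand), which 50.4% of the promoters held and which was not found in the windows of Ifng or Tnfsf10. The AP-1 pattern TGANTCA (7.93% of promoters), the CRE pattern TGACGTCA (1.88%) and the T-box pattern TCACACC (3.96%) matched in none of the 9 windows, and the SMAD pattern CAGACA (21%) matched only in Lta. The STAT pattern TTCNNNGAA (8.47%) matched 1 time in Ifng, 2 times in Lta and 1 time in Ltb. No match in a window of this length says nothing of sites elsewhere.

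The libraries held 19382147 to 24856195 reads on genes, as the lowest steps of the values showed, so that 3 reads corresponded to 2.59 to 3.35 normalized counts. Values are read counts divided by the size factor of each library. T_Dysf replicate 1 stood apart in that 51.0% of its values under 1000 reads were whole reads, against 72.2% to 74.9% in the other libraries, and results without it are given below where they differ. Cd8a was at 11170 to 36163 and Cd3e at 9573 to 24788 in all 8 libraries, and Cd4 did not exceed 13.0. T_Dysf had the highest sum of 7 CD8 T cell markers (118426 and 122832 against 60252 to 76074 in the other 6), though against Acute-7d 2 of the 7 were called higher and 2 lower. Those lower were Cd2 (3439 and 3478 against 6566 to 8821 in the other 6), which fell by 1.31, and Cd5 (691 and 694 against 1650 to 4144), which fell by 1.40 on the log2 scale. Among the lists of other cell types, that of B and plasma cells was highest in T_Dysf, at 406 and 428 against 62.5 to 184. Jchain accounted for this, with 236 and 275 against 2.02 to 7.37. Cd79b of the same list was also called higher than in Acute-7d (136 and 115 against 30.1 and 38.4, log2 difference 1.84, limma adjusted p = 0.0307). It lay within the 72.7 to 138 of Effector and Acute-2d. The sums for myeloid cells (327 to 743), dendritic cells (115 to 568), erythroid cells (43.1 to 101) and CD4 T cells (1058 to 1639) in T_Dysf lay within the range of the other conditions, and that of NK cells ranged from 1077 to 1753 in T_Dysf and from 1546 to 4547 elsewhere. In bulk RNA, a change in the share of cells that express a gene and a change in RNA per cell cannot be told apart.

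**Figure D1:**
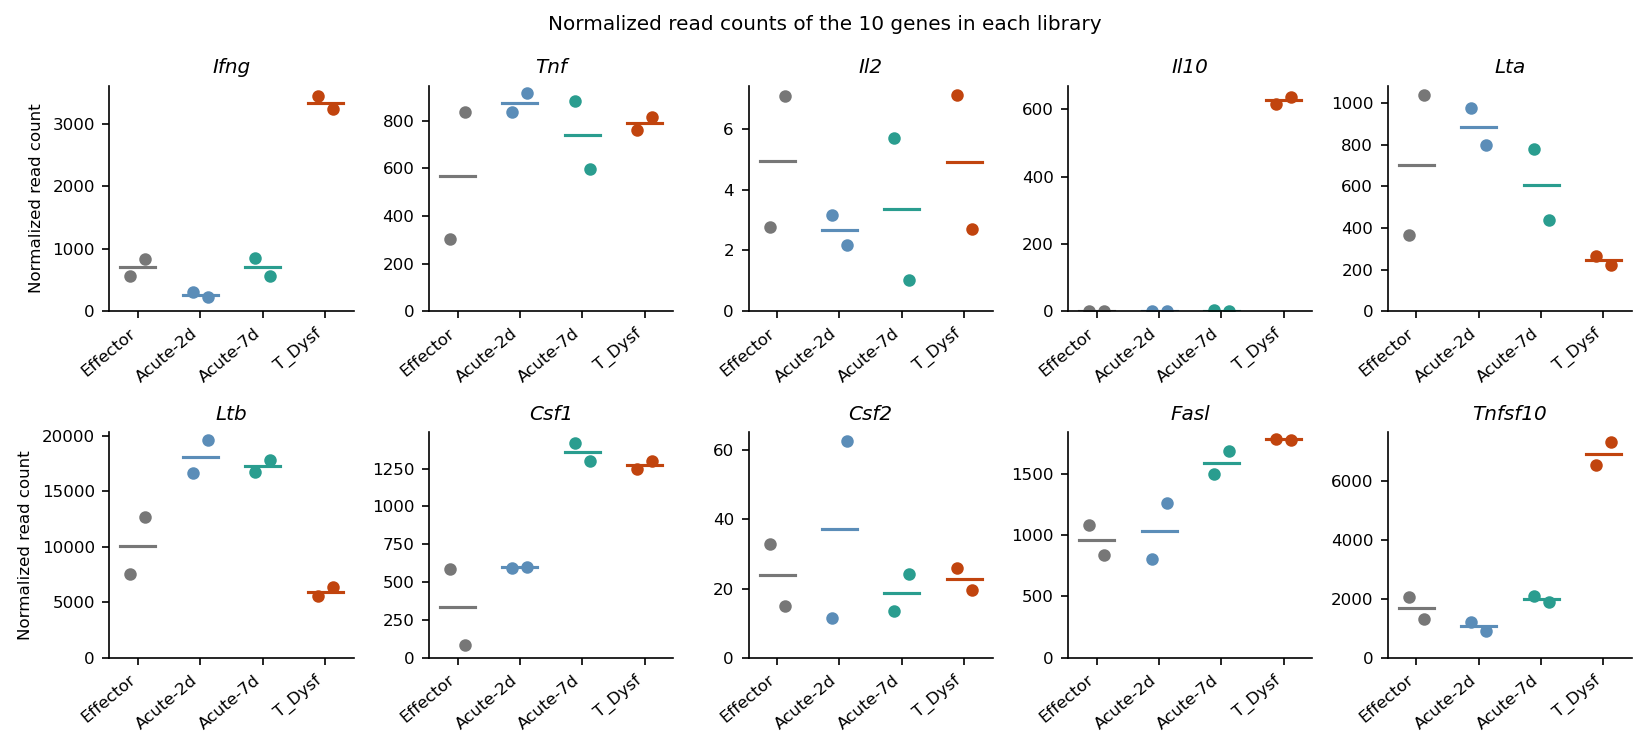
Normalized read count (linear axis, starting at 0, own scale per gene) of the 10 genes in each of the 8 libraries. Points are libraries and horizontal bars the mean of 2. Ifng, Il10, Tnfsf10 and, by a narrow margin, Fasl stand above and Lta and Ltb below all 6 other libraries in T_Dysf, whereas Tnf, Il2 and Csf2 overlap between conditions.

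To ask which effector transcripts separate T_Dysf from cells rested after the same first week of antigen, T_Dysf was compared with Acute-7d. Ifng, Il10 and Tnfsf10 were higher and Ltb was lower in T_Dysf, and the other 6 members, Tnf, Il2, Lta, Csf1, Csf2 and Fasl, did not pass the test. A gene was called when it differed by at least 2-fold with an adjusted p below 0.05 in limma, fitted to log2(normalized count + 1) of all genes in all 8 libraries. By this rule 4 of 10 members were called, 3 higher and 1 lower, while 5.57% of all 24303 genes were called, 2.54% higher and 3.03% lower. The members were chosen with earlier results of these data known, so these shares describe the list and do not test it. The median log2 difference over the 10 members was 0.24, and over all genes tested it was 0.00.

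Ifng had 3441 and 3230 normalized counts in T_Dysf as opposed to 859 and 556 in Acute-7d, 569 and 838 in Effector and 311 and 221 in Acute-2d. Both T_Dysf libraries were far above all others, Effector and Acute-7d covered the same range, and Acute-2d was lowest. The means were 3336 ± 149 (SD, n = 2) in T_Dysf and 708 ± 214 (SD, n = 2) in Acute-7d, a log2 difference of 2.27 (SE 0.31, limma adjusted p = 0.0208), or 4.82-fold. Against Acute-2d (266 ± 63.2, SD, n = 2) the log2 difference was 3.66 (SE 0.31, limma adjusted p = 0.00565), and against Effector (703 ± 190, SD, n = 2) it was 2.27 (SE 0.31, limma adjusted p = 0.0151). The call against Acute-7d was lost when any of the 4 libraries compared was left out (log2 difference 1.96 to 2.58, limma adjusted p 0.0553 to 0.115), and that against Effector when either T_Dysf library was (limma adjusted p = 0.0862 and 0.0545), while the call against Acute-2d was kept. Among protein-coding genes, the level of Ifng per kb of exon moved from the 88.1 percentile in Acute-7d to the 98.2 percentile in T_Dysf. The exons of Ifng overlap another entry of the same strand, Gm49751, which had 142 and 150 normalized counts in T_Dysf and 10.8 to 71.4 in the other libraries, so a small part of the reads could be split between them. Dyrk2, the next gene beyond Ifng, went the other way, with 1085 and 1229 in T_Dysf against 1575 to 3469 elsewhere.

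Il10 was the member that exceeded 3 reads in 1 condition only. T_Dysf had 615 and 637 normalized counts, or 713 and 716 reads, and the other 6 libraries had 0 to 2 reads each. Since a count below 3 reads cannot be told from 0 at this depth, the level in T_Dysf (626 ± 15.5, SD, n = 2) was at least 187-fold higher than in Acute-7d, at least 193-fold higher than in Acute-2d and at least 208-fold higher than in Effector, taking 3 reads in the shallower library of each as the floor. Limma adjusted p-values were 0.00579, 0.00386 and 0.00447. Per kb of exon, Il10 in T_Dysf (478 ± 11.9, SD, n = 2) reached the level of Tnf (481 ± 23.0, SD, n = 2). The call of Il10 was kept in all 17 alternative settings in each of the 3 comparisons. Neither neighbor on the chromosome showed this pattern, since Il19 and Mapkapk2 were not called in T_Dysf against any condition. Jchain, named above, also moved with T_Dysf, and its part in the Il10 values was not tested.

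Tnfsf10, encoding TRAIL, reached 6539 and 7324 normalized counts in T_Dysf but 2100 and 1896 in Acute-7d, 2059 and 1315 in Effector and 1227 and 909 in Acute-2d. The lowest T_Dysf library was more than any other, and Acute-2d lay below the remaining 4. The means were 6932 ± 555 (SD, n = 2) in T_Dysf and 1998 ± 144 (SD, n = 2) in Acute-7d, a log2 difference of 1.79 (SE 0.26, limma adjusted p = 0.0236), or 3.47-fold. It was 2.71 (SE 0.26, limma adjusted p = 0.00725) against Acute-2d and 2.07 (SE 0.26, limma adjusted p = 0.0126) against Effector. The call against Acute-7d was lost without any 1 of the 4 libraries compared (log2 difference 1.71 to 1.88, limma adjusted p 0.0802 to 0.111), and that against Effector without T_Dysf replicate 1 (0.0688) or T_Dysf replicate 2 (0.0502). Against Acute-2d it was kept. Ghsr, the next gene on the same strand, begins 28924 bases beyond the end of Tnfsf10, and it had 51.8 and 69.4 in T_Dysf against 0 to 1.12 in the other libraries. It was called higher in T_Dysf in all 3 comparisons, and was picked out after its values were seen.

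Fasl, the other death ligand, changed little by comparison. In T_Dysf it had 1786 and 1773 normalized counts, compared with 1493 and 1684 in Acute-7d, 1084 and 840 in Effector and 806 and 1263 in Acute-2d. T_Dysf was highest, but its margin over Acute-7d was smaller than the gap between the Acute-7d libraries. The log2 difference from Acute-7d was 0.17 (95% interval -0.47 to 0.80, limma adjusted p = 0.752), and those from Acute-2d (0.82, limma adjusted p = 0.110) and Effector (0.90, limma adjusted p = 0.0760) did not pass either. Within each library, the ratio of Tnfsf10 to Fasl per kb of merged exon was 1.35 and 1.52 in T_Dysf and 0.265 to 0.699 in the other 6. Per kb, Tnfsf10 thus exceeded Fasl in T_Dysf and in no other library. Before division by length, Tnfsf10 had the higher count in every library except Acute-2d replicate 2. Which isoforms were present was not tested, so numbers of transcripts are not given by this ratio.

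**Figure D2:**
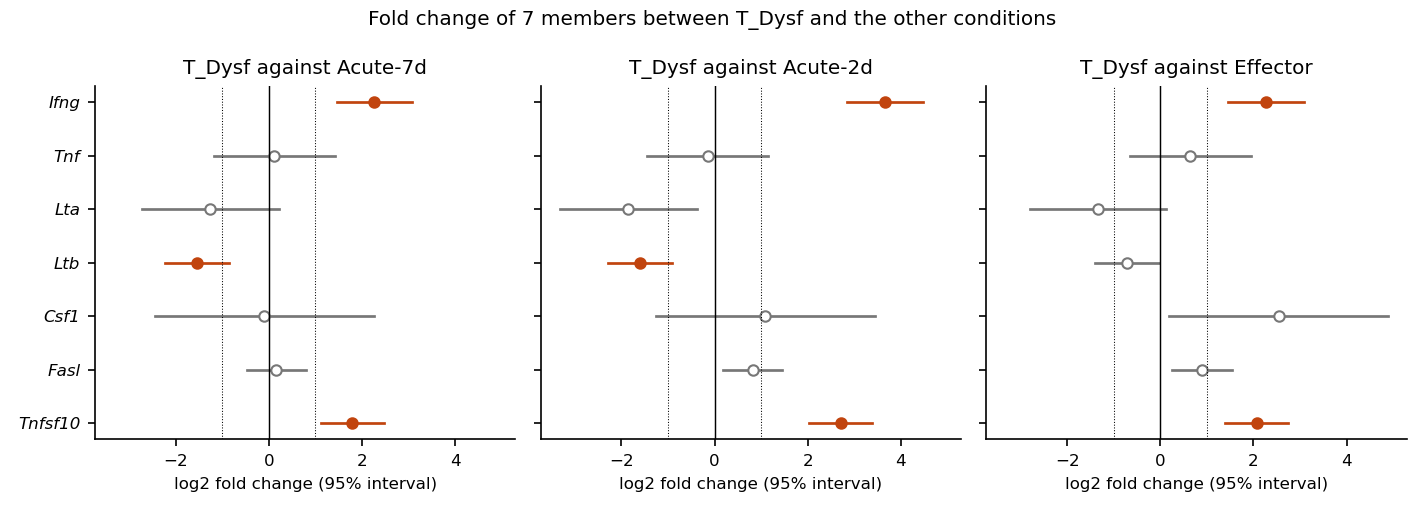
Log2 difference in normalized counts between T_Dysf and each other condition, with 95% intervals, for the 7 members with an adequate level in all conditions. Filled orange points passed the fold change and adjusted p thresholds, open gray points did not, and dotted lines mark 2-fold. Ifng and Tnfsf10 pass in all 3 panels and Ltb in 2.

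The Ltb, Tnf and Lta genes lie within about 11 kb of chromosome 17. Ltb in T_Dysf had 5584 and 6338 normalized counts, as opposed to 16730 and 17884 in Acute-7d, 16692 and 19622 in Acute-2d and 7549 and 12673 in Effector. T_Dysf was lowest and both rested conditions were high, with Effector between. The means were 5961 ± 533 (SD, n = 2) in T_Dysf and 17307 ± 816 (SD, n = 2) in Acute-7d, and Ltb fell by 1.54 on the log2 scale (SE 0.26, limma adjusted p = 0.0345). It fell by 1.61 against Acute-2d (SE 0.26, limma adjusted p = 0.0254), while the difference from Effector, -0.72 (95% interval -1.40 to -0.03), did not pass (limma adjusted p = 0.143), although it did without Effector replicate 1 (-1.09, limma adjusted p = 0.0242). Both calls of Ltb were lost when any 1 library of T_Dysf, Acute-7d or Acute-2d was left out (limma adjusted p 0.0717 to 0.163 against Acute-7d and 0.0608 to 0.132 against Acute-2d), with log2 differences of -1.72 to -1.45. Ltb, which anchors lymphotoxin at the cell surface, remained the most abundant member per kb in every condition, from 3932 ± 352 (SD, n = 2) in T_Dysf to 11977 ± 1367 (SD, n = 2) in Acute-2d.

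Lta, encoding the soluble partner of Ltb, had 268 and 222 normalized counts in T_Dysf as opposed to 778 and 436 in Acute-7d, 975 and 800 in Acute-2d and 365 and 1041 in Effector. T_Dysf lay below all 6 other libraries, but Acute-7d and Effector replicates differed widely. The log2 differences of T_Dysf were -1.26 against Acute-7d (limma adjusted p = 0.250), -1.85 against Acute-2d (limma adjusted p = 0.113) and -1.34 against Effector (limma adjusted p = 0.189), none of which passed. The one against Acute-2d passed in 5 of 17 alternatives, with genes at a maximum or a mean of at least 50 normalized counts only (limma adjusted p = 0.0260, with 15.1% of genes at that maximum called), with only the 2 conditions compared (0.0399) and without either Effector library (0.0461), and over all 17 its adjusted p ranged from 0.0260 to 0.321. Likewise, without Effector replicate 1 the one against Effector did (-2.09, limma adjusted p = 0.0490). Tnf, transcribed from the same strand 1158 bases away, had 761 and 815 in T_Dysf, within the 303 to 914 of the other libraries. Its log2 difference from Acute-7d was 0.12 with a 95% interval of -1.18 to 1.42 (limma adjusted p = 0.978), so a change of 2-fold in either direction was not resolved.

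Ratios within a library do not depend on the size factors. Tnf over Lta per kb was 2.40 and 3.10 in T_Dysf and 0.676 to 1.16 in the other 6 libraries. Ltb over Tnf per kb was 7.93 and 8.41 in T_Dysf and 16.4 to 32.4 elsewhere, and Ifng over Tnf was 5.72 and 5.02 against 0.306 to 2.38. In each of these 3 ratios, all of which include Tnf, both T_Dysf libraries lay outside the range of the others, although Tnf itself did not. Ltb over Lta per kb was 19.0 and 26.1 in T_Dysf, within the 11.1 to 37.4 of the other libraries.

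**Figure D3:**
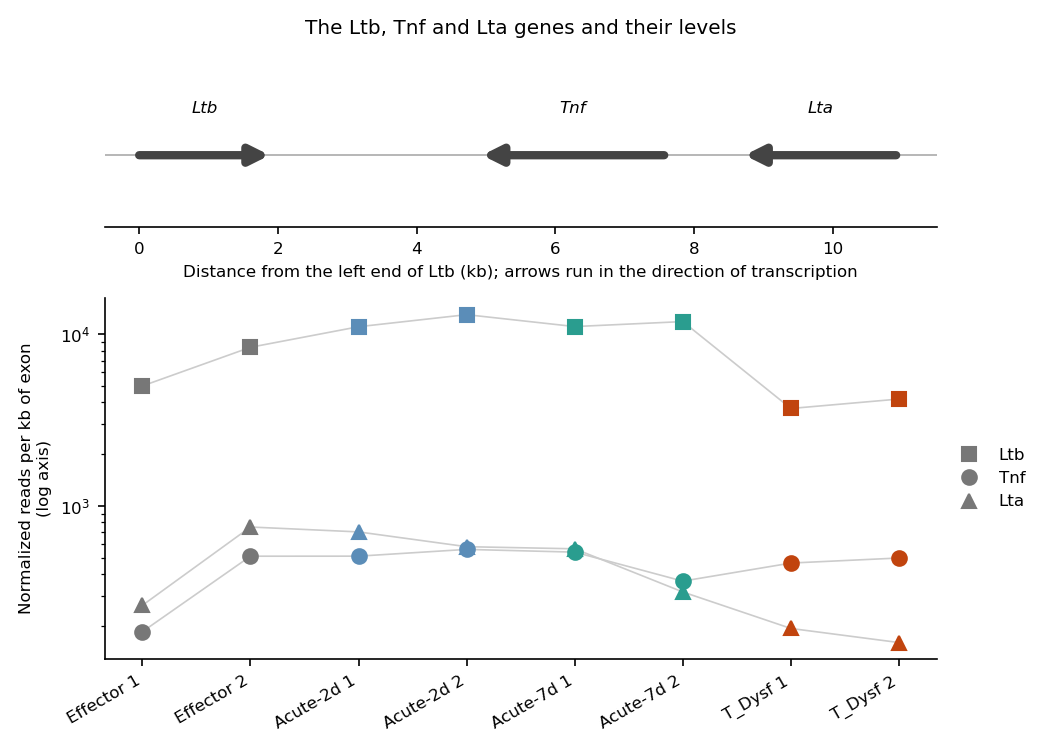
Upper panel, the Ltb, Tnf and Lta genes drawn to scale, in kb from the left end of Ltb, with arrows in the direction of transcription. Lower panel, normalized reads per kb of exon (log axis) in each library, colored by condition. Ltb and Lta are lowest in T_Dysf, Tnf there lies within the range of the other libraries, and Tnf over Lta reaches 2.40 and 3.10.

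Csf1, encoding M-CSF, had normalized counts of 1247 and 1299 in T_Dysf, of 1421 and 1300 in Acute-7d, 592 and 602 in Acute-2d and 584 and 81.3 in Effector. T_Dysf and Acute-7d, both given repeated peptide and taken on day 19, lay above Acute-2d (no peptide) and Effector (day 7) without overlap. No comparison passed, and the 95% interval of the log2 difference between T_Dysf and Acute-7d, -2.44 to 2.25, was wide because the 2 Effector libraries, which share in the estimate of spread, lay far apart. With genes at a maximum of at least 50 normalized counts only, Csf1 was called higher in T_Dysf than in Effector (log2 difference 2.54, limma adjusted p = 0.0335), as were 19.2% of those genes in either direction, and over the 17 alternatives its adjusted p ranged from 0.000469 to 0.510. Without Effector replicate 1 the difference from Effector was 3.95 (limma adjusted p = 0.000469), and without Effector replicate 2 it was 1.12 (limma adjusted p = 0.0108). Without either of them, Csf1 was also called higher in T_Dysf than in Acute-2d (log2 difference 1.09) and in Acute-7d than in Acute-2d (1.19), with limma adjusted p of 0.00592 to 0.0249.

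Il2 and Csf2 were near the limit of detection. Il2 had 1.02 to 7.11 normalized counts, which is 1 to 8 reads, with no order between conditions. Csf2 had 11.6 to 62.6, with its lowest and its highest value both in Acute-2d. Neither was called in any of the 6 comparisons, and at this depth no difference could be resolved for Il2.

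Across all members, 4 (Ifng, Il10, Tnfsf10 and Fasl) had both T_Dysf libraries above and 2 (Lta and Ltb) had both below the other 6 libraries. Of all genes, 11.6% were above and 12% below in this way, and of the 12028 genes with a mean of at least 50, 17.3% and 16.7%. The makeup of the group shifted accordingly. Ltb made up 38.7% of the summed level per kb in T_Dysf, compared with 73.7% in Effector, 79.6% in Acute-7d and 84.0% in Acute-2d. Ifng made up 25.4% in T_Dysf and 1.47% to 6.09% elsewhere, Tnfsf10 13.0% against 1.45% to 3.94%, and Il10 4.71%.

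**Figure D4:**
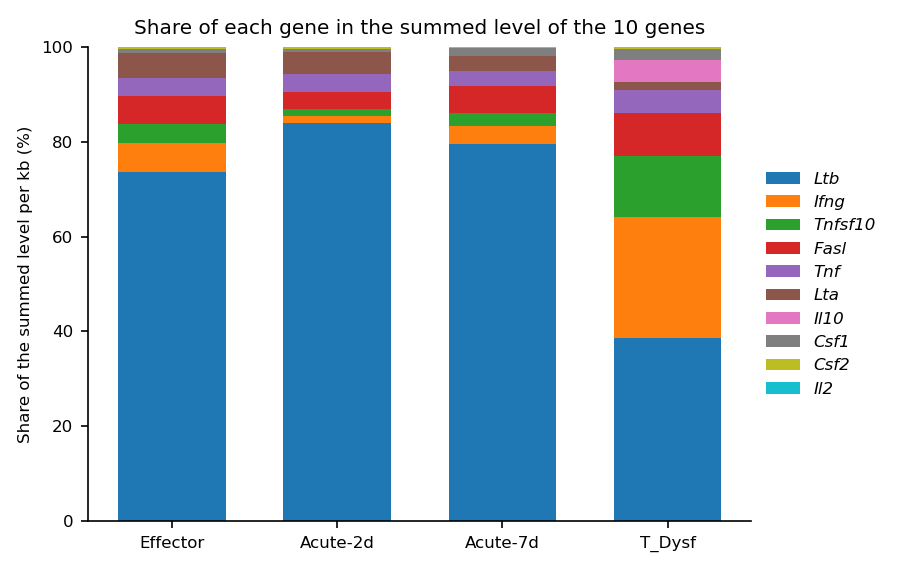
Share (percent) of each member in the summed level per kb of exon of the 10 genes, taken in each library and averaged per condition. Ltb fills 73.7% to 84.0% of the bar in Effector, Acute-2d and Acute-7d and 38.7% in T_Dysf, where Ifng (25.4%) and Tnfsf10 (13.0%) take larger shares.

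T_Dysf was next compared with Acute-2d, cells without peptide after day 2. The same 4 members were called, Ifng, Il10 and Tnfsf10 higher and Ltb lower, against 7.35% of all genes (3.14% higher and 4.21% lower). The median log2 difference over the 10 members was 0.70, and over all genes it was 0.00. Against Effector, Ifng, Il10 and Tnfsf10 were called higher and no member lower, against 9.22% of all genes (4.47% higher and 4.75% lower), with medians of 0.77 and 0.00. The 3 comparisons share the T_Dysf libraries and are not independent of each other.

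Among the conditions other than T_Dysf, only Ifng was called, in Effector against Acute-2d (log2 difference 1.39, SE 0.31, limma adjusted p = 0.0472), against 8.78% of all genes. This call was kept in 5 of 17 alternatives (limma adjusted p 0.00794 to 0.472), and it was lost without any 1 of the 8 libraries (log2 difference 1.11 to 1.67, limma adjusted p 0.0588 to 0.164). Acute-7d against Acute-2d gave nearly the same difference for Ifng, 1.40, which did not pass (limma adjusted p = 0.417, unadjusted p = 0.00703). In that comparison 0 of 10 members and 0.169% of all genes were called, 3 members (Ifng, Fasl and Tnfsf10) and 7.31% of all genes had an unadjusted limma p under 0.05, and all 3 members had the higher mean in Acute-7d. In Effector against Acute-7d, 0 members and 8.06% of genes were called, and 3 members (Csf1, Ltb and Fasl), like 30.4% of all genes, had an unadjusted limma p under 0.05, all 3 with the lower mean in Effector. Without Effector replicate 2, Ltb (-1.20, limma adjusted p = 0.0391) and Csf1 (-1.22, limma adjusted p = 0.0133) were called, and without Effector replicate 1, Csf1 was (-4.05, limma adjusted p = 0.000486).

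The receptors for these ligands, a list also chosen with earlier results known, were followed in the same cells. Of 20 receptor genes, 7 were lower and 1 was higher in T_Dysf than in Acute-7d, where 3.03% of all genes were lower and 2.54% higher, with a median log2 difference of -0.37 against 0.00 over all genes. The 4 called receptors that moved most all belong to the TRAIL or death receptor branch. Tnfrsf11b, encoding osteoprotegerin, a soluble decoy that binds TRAIL and RANKL, had 8.63 and 6.23 normalized counts in T_Dysf against 277 and 218 in Acute-7d, and fell by 4.89 on the log2 scale (limma adjusted p = 0.00554). Tnfrsf23 and Tnfrsf22, decoy receptors of TRAIL without a death domain, fell by 4.53 and fell by 4.39, and their relative Tnfrsf26 fell by 3.38 (limma adjusted p = 0.00562, 0.00750 and 0.00938). Tnfrsf22 went from 583 and 415 to 15.2 and 32.9, Tnfrsf23 from 192 and 144 to 7.22 and 5.34, and Tnfrsf26 from 1282 and 880 to 87.2 and 117. These 3 genes are related in sequence and lie next to each other on chromosome 7, so reads could have been shared among them. Effector lay between T_Dysf and Acute-7d for these 4 genes, with 21.9 and 32.1 for Tnfrsf11b, 223 and 205 for Tnfrsf22, 38.2 and 22.5 for Tnfrsf23 and 238 and 403 for Tnfrsf26. Tnfrsf10b, the receptor that transmits the TRAIL death signal, had 71.6 and 86.3 in T_Dysf and 109 and 116 in Acute-7d, a log2 difference of -0.51 that did not pass (limma adjusted p = 0.125).

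The other called receptors were looked up after their values were seen. Fas had normalized counts of 25.0 and 14.2 in T_Dysf, of 114 and 108 in Acute-7d, 324 and 334 in Acute-2d and 119 and 176 in Effector, and fell by 2.49 against Acute-7d (limma adjusted p = 0.0181). Il10ra, the ligand-binding chain of the IL-10 receptor, had 1290 and 1469 in T_Dysf against 2491 to 3470 in the other libraries and fell by 1.02 (limma adjusted p = 0.0203). Ifngr1, the ligand-binding chain of the IFN-γ receptor, had 6304 and 6002 against 9067 to 16785 and fell by 1.27 (limma adjusted p = 0.00416). Tnfrsf1b, the TNF receptor of activated T cells, was the only receptor called higher. It had 5298 and 5560 in T_Dysf against 2814 and 2414 in Acute-7d, a log2 difference of 1.06 (limma adjusted p = 0.0120). Il2rb, of the IL-2 receptor, also rose, from 22893 and 20906 in Acute-7d to 36512 and 40886. Its difference stayed under 2-fold (log2 difference 0.82, limma adjusted p = 0.028). Against Acute-2d, 7 receptors were called lower and 2 higher (7.35% of all genes in either direction), and against Effector 7 lower and 2 higher (9.22%). Receptors were also called between the other conditions, 3 lower and 1 higher in Effector than in Acute-7d (8.06% of all genes) and 5 lower and 1 higher in Effector than in Acute-2d (8.78%), and in Acute-7d against Acute-2d none was.

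**Figure D5:**
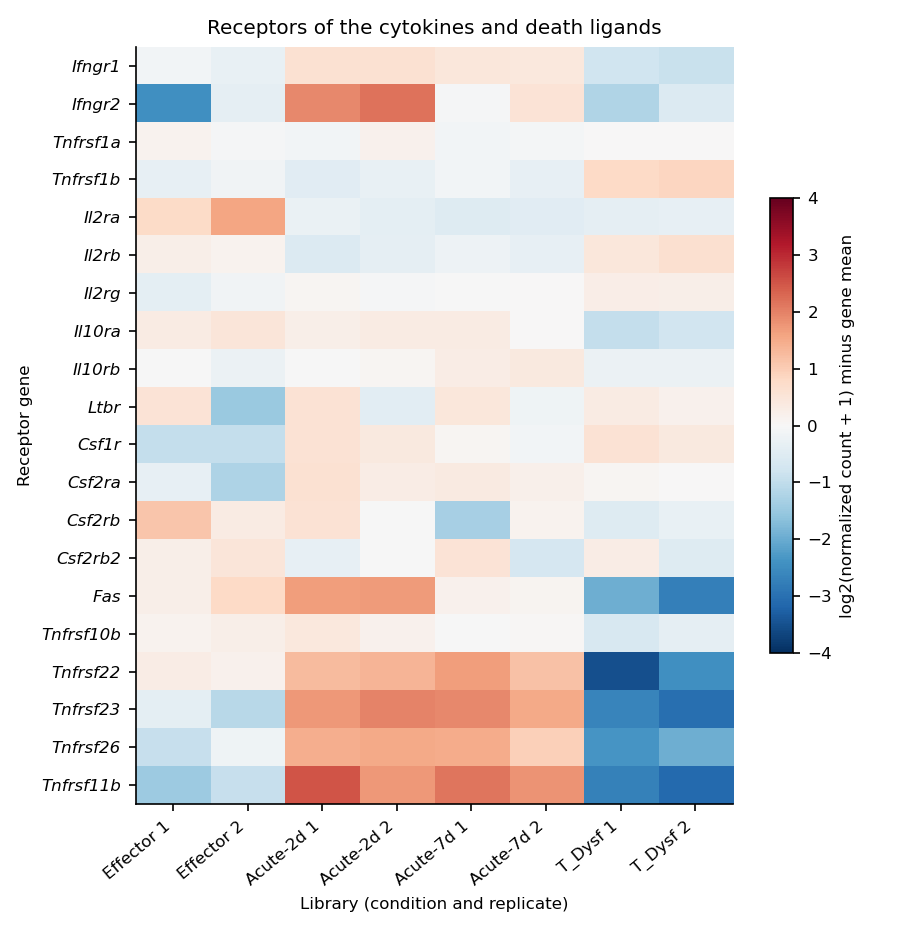
Log2(normalized count + 1) of 20 receptor genes in each library, minus the mean of the gene over the 8 libraries (blue lower, red higher). In T_Dysf, Fas, Tnfrsf22, Tnfrsf23, Tnfrsf26 and Tnfrsf11b are lowest and Tnfrsf1b is highest.

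Other genes of these pathways were counted in T_Dysf against Acute-7d, where 5.57% of all genes were called. Of 19 genes of death receptor signaling, 1 was called, Mlkl, the executioner of necroptosis (644 and 617 against 245 and 328, log2 difference 1.15, limma adjusted p = 0.0384), with a median of 0.04. Of 11 genes that control decay of cytokine messages, such as Zfp36 and Zc3h12a, none was called (median -0.15, 2 with an unadjusted limma p under 0.05, as 26.1% of all genes had). Of 11 measured ligands of the TNF superfamily other than the members, 1 was called, Tnfsf8, encoding CD30 ligand (506 and 708 against 3452 and 3622, fell by 2.56, limma adjusted p = 0.0243), with a median of -0.16. Of 21 measured cytokines other than the members, 2 were called, both lower. These were Ebi3, a subunit shared by IL-27 and IL-35 (48.3 and 62.1 against 220 and 185, fell by 1.86), and Mif (1097 and 852 against 3312 and 2995, fell by 1.70). Their limma adjusted p-values were 0.0276 and 0.0125, and the median of the list was 0.00. Of 18 transcription factors with known roles at these loci, 1 was called, Ikzf3, encoding Aiolos (6891 and 7350 against 2537 and 2578, log2 difference 1.48, limma adjusted p = 0.00767), with a median of -0.02. Over all genes the median was 0.00 in this comparison.

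To find genes that varied like each member, Pearson's r of log2(normalized count + 1) over the 8 libraries was taken for the 12028 genes with a mean of at least 50. This describes 8 points that share their conditions, so any gene set apart in T_Dysf gives a high r with Ifng, Il10 and Tnfsf10. The closest gene was Trappc10 for Ifng (r = 0.992), Tnfrsf1b for Il10 (r = 0.995), and the noncoding Gm43042 for Tnfsf10 (r = 0.994). It was Als2cl for Ltb (r = 0.995), Ddx23 for Lta (r = 0.976), Zfyve28 for Csf1 (r = 0.990) and Rasl12 for Fasl (r = 0.964). Tnf had the weakest match, Xbp1 (r = 0.919). Adam19 followed for Ifng, Apol9b and Jaml for Il10, and Srd5a3 and Rgs18 for Tnfsf10. Plekha2 and Rbck1 followed for Tnf, Washc4 and Zfp106 for Lta, and 9430015G10Rik and Pou2f2 for Ltb. Ppm1j and Ctla2a followed for Csf1, and Tmem181b-ps and Naip2 for Fasl. Among the members themselves, Ifng with Tnfsf10 (r = 0.949) and Lta with Tnfsf10 (r = -0.879) had the highest and the most negative values, and Tnf with Lta had r = 0.374 despite their shared cluster.

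With 2 libraries a group, an exact permutation test of a single gene cannot give a p below 0.333, so all calls rest on the spread pooled over genes and conditions by limma. The labels do not say whether the 2 libraries of a condition came from separate mice, and the p-values measure the spread between these libraries alone. Both Effector libraries and 1 Acute-7d library carry the prefix RESUB in their names, and its meaning is not given in the sources used here. With a term for this prefix, Il10 stayed called in all 3 comparisons of T_Dysf, whereas Ifng and Tnfsf10 stayed called against Acute-2d only and Ltb in none.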

How the data were processed

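Poly(A) RNA of sorted P14 cells was sequenced on a NovaSeq in 8 libraries, 2 for each of 4 conditions, taken from the sample labels. Alignment by the authors was with STAR (genome build mm10), and reads were counted per gene against RefSeq transcripts in Partek Flow and divided by DESeq2 median-ratio size factors (versions are not given in the sources used here). The deposited values are therefore a signal per gene, normalized read counts, for 24303 genes, and the low-count filter of the methods had not been applied to them. Whole reads came back within 0.01 for 51.0% to 74.9% of the values of a library under 1000 reads, too few for a count model. The strand setting of the counting is not given in the sources used here.

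Values were transformed to log2(value + 1), and limma 3.58.1 (R 4.3.3, trend, 4 condition means, 4 residual degrees of freedom, Benjamini-Hochberg adjustment over all genes) gave 6 comparisons. A fold change on this scale understates changes of low genes. Lower bounds used 3 reads as a floor and cover counting error only. Levels per kb used merged exon length, with coordinates from GRCm38. The members and gene lists were chosen with earlier results of these data known. All 10 members were described, and beyond them at most 4 called genes per list (largest change in T_Dysf against Acute-7d, mean of at least 50) and the 3 genes most like each member. Some items that these rules name are not reported here. Fas, Il10ra, Ifngr1, Tnfrsf1b, Tnfrsf10b, Il2rb, Jchain, Cd79b, Cd2, Cd5, Dyrk2, Gm49751 and Ghsr were added after their values were seen. Alternatives were other pseudocounts (0.1 and 10), filters (maximum or mean of at least 50), scalings, the 2 conditions alone, a replicate block, a term for the RESUB prefix and each library left out. The main fit did not pair libraries by replicate number, since the labels do not say whether equal numbers share a mouse or culture.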

Additional observations from a re-analysis of the deposited data

How the results depend on the processing

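Il10 stayed called in all 17 alternatives of the 3 comparisons of T_Dysf, and Ifng and Tnfsf10 in all 17 against Acute-2d. Against Acute-7d, Ifng was called in 11, Tnfsf10 in 12 and Ltb in 10, and against Effector, Ifng and Tnfsf10 in 13 each, always with the same direction. The differences between the replicates of a condition correlated weakly between conditions (-0.199 to 0.197, above 0.1 in 2 of 6 pairs). With 1 difference per condition, this cannot decide whether equal replicate numbers share a mouse or culture. With a replicate block, 4 members stayed called in T_Dysf against Acute-7d and 0 in Effector against Acute-2d, and genes called in T_Dysf against Acute-7d went from 1353 to 891. With the RESUB term, 1 member was called in T_Dysf against Acute-7d, 1 against Effector and 0 in Effector against Acute-2d, and genes called were 541 for T_Dysf against Acute-7d, 386 against Effector, 808 for Effector against Acute-7d, 350 against Acute-2d and 168 for Acute-7d against Acute-2d (41 without it). In that fit the contrast of Effector with the other conditions rests on the 2 Acute-7d libraries. With only the 2 conditions compared, 1 member was called in T_Dysf against Effector and 0 in Effector against Acute-2d, and genes called were 465 for T_Dysf against Effector, 155 for Effector against Acute-7d, 235 against Acute-2d and 147 for Acute-7d against Acute-2d. Filters at a maximum or a mean of at least 50 added 1 member each, Csf1 in Effector against Acute-7d and in T_Dysf against Effector and Lta in T_Dysf against Acute-2d, and left 1 gene called in Acute-7d against Acute-2d, where a pseudocount of 0.1 gave 81 and of 10 gave 4. Of the 13175 genes at that maximum, 2176, 2532 and 1989 were called in the first 3 of these comparisons. Of the 12028 genes at that mean, 1937, 2218 and 1697 were. With equal 75th percentiles, the median of genes with a mean of at least 50 in Effector moved from 0.02 to -0.11 against Acute-7d and -0.13 against Acute-2d, and the split of higher and lower genes from 1016 and 942 to 813 and 1184, and from 1047 and 1088 to 787 and 1410. Lta in Effector against Acute-7d turned from 0.08 to -0.052 there and to -0.33 with the RESUB term, and Fasl in Effector against Acute-2d from -0.08 to 0.093 with that term. The causes were not tested.

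Leaving out 1 library at a time, members called ranged from 1 to 4 in T_Dysf against Acute-7d (1 without any 1 of the 4 libraries compared), 3 to 6 against Acute-2d and 1 to 6 against Effector, from 0 to 2 in Effector against Acute-7d, and from 0 to 1 in Effector against Acute-2d and in Acute-7d against Acute-2d. Genes called ranged from 422 to 1534, 656 to 1867, 585 to 2484, 378 to 2156, 553 to 2363 and 61 to 376 in the same order. Signs were followed only for members with a mean of at least 50 normalized counts in a compared condition, which left out Il2 and Csf2. Among the members followed, log2 differences that changed sign were those of Tnf in T_Dysf against Acute-7d (-0.16 to 0.40) and against Effector (-0.083 to 1.37), Ifng (-0.31 to 0.31), Tnf (-1.26 to 0.20), Lta (-0.67 to 0.84) and Tnfsf10 (-0.60 to 0.045) in Effector against Acute-7d, Lta (-1.27 to 0.24) and Fasl (-0.40 to 0.24) in Effector against Acute-2d, and Tnf (-0.55 to 0.012) and Ltb (-0.18 to 0.051) in Acute-7d against Acute-2d, none of them called. A group left with 1 library was assumed to vary like the others.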
